A study of Mus musculus with 14 samples.

Results

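The genes described here encode secreted growth factors that endothelial cells can pass to neighbouring liver cells, with the receptor of the best known of them, and 2 activin subunits. The 10 members were taken by name: Hgf, Met, Igf1, Pdgfa, Pdgfb, Pdgfc, Pdgfd, Hbegf, Inhba and Inhbb. They are 10 of the 54524 genes in the count table, were matched by Ensembl identifier to GENCODE vM21, and all 10 were among the 26626 genes that passed the filter on low counts. RNA was sequenced from liver sinusoidal endothelial cells (LSECs), the fenestrated cells that line the liver's capillaries. They were sorted from 14 male Balb/c mice labelled as 10 to 12 weeks old. The groups were 4 non-treated (healthy) mice, and 2, 4 and 4 mice taken 1, 3 and 7 days after 1 intraperitoneal injection of carbon tetrachloride (CCl4, a solvent that injures hepatocytes) in mineral oil, labelled as 0.5 µL per g of body weight. The healthy mice received no oil injection, so CCl4, the oil and the injection cannot be told apart. The sort took living cells with CD32 at their surface and without F4/80, a macrophage marker, or UV autofluorescence, which stellate cells show through their stored vitamin A (the study's methods add the absence of CD45, which the labels do not list). The remaining day 1 samples were left out by the study for low RNA integrity.

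Angiocrine factors are proteins that endothelium secretes to instruct the cells around it. HGF binds the receptor tyrosine kinase MET on hepatocytes and drives their growth. The PDGF ligands act on PDGF receptors of stellate cells, the liver's pericytes. HB-EGF is a membrane-anchored ligand of the EGF receptor that proteases release, and IGF-1 is a circulating growth factor made mainly by hepatocytes. Activins are dimers of the TGF-beta family built from beta subunits, activin A from the Inhba product and activin B from the Inhbb product. In the liver activins are known as inhibitors of hepatocyte growth that follistatin binds and neutralises.

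The total count per library ran from 46401496 to 103912264. Values are given as CPM (counts scaled to a common library total) after TMM scaling of the library size, in the order of the replicate numbers, and as RPKM, CPM per kilobase of annotated exon, where levels of different genes are compared. Fold changes are log2 values from edgeR's quasi-likelihood test, with p-values adjusted over all 26626 tested genes (Benjamini-Hochberg), and a gene was called at an adjusted p under 0.05. The p-values measure the spread between single mice. A gene under 3 counts in a library was taken as not detected, a limit that covers counting error only. The defining LSEC genes were high throughout: the summed level of 10 markers was 16313 to 19678 CPM in healthy LSECs, 12416 to 15178 CPM at day 1, 10504 to 14435 CPM at day 3 and 9796 to 14130.5 CPM at day 7, and the highest of them, the lectin gene Clec4g, lay between 1987 and 6517 CPM. Day 3 replicate 4 had a count in 22986 genes, against 27283 to 34768 in the others, and listed 0 counts of Met, Pdgfc and Inhba among its 81612653 reads. In healthy replicate 4 the 8 hepatocyte markers summed to 7245 CPM, against 176 to 328 CPM in the other healthy mice. In bulk RNA, fewer cells of a type and less RNA per cell cannot be told apart.

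After CCl4, 5 of the 10 members changed. Inhbb, Hgf, Pdgfa and Pdgfb rose at days 1 and 3, Pdgfd fell at the same times, and only Hgf was still called at day 7. At day 1, 4 members were called higher and 1 lower. Of all tested genes, 2.42% were called higher, 1.64% lower and 4.06% in either direction at that time. At day 3 these 5 genes were called again, 4 higher and 1 lower, against 4.62% of all genes higher, 2.58% lower and 7.19% in either direction. At day 7, 1 member was called higher and 0 lower by edgeR (1 lower at an unadjusted p under 0.05, and 1 by DESeq2), with 2.19% of all genes higher and 0.992% lower (3.18% in all). Igf1, Met, Pdgfc, Hbegf and Inhba did not pass the test in any of the 3 comparisons. The members' median log2 fold change was 0.83 at day 1, 0.68 at day 3 and 0.74 at day 7, beside -0.03, 0.18 and 0.02 over all tested genes. Scaled by library size only instead of TMM, the share of all called genes that were higher was 75.1% at day 3 (64.2% with TMM) and 86.8% at day 7 (68.8% with TMM). These shares depend on single mice: with 1 mouse left out, 164 to 810 genes were called at day 1 instead of 1080, 943 to 3314 at day 3 instead of 1915, and 193 to 1509 at day 7 instead of 846. Between consecutive times, Inhbb was the one member called, lower at day 3 than at day 1 (2.54% of all genes called, 0.969% lower) and lower at day 7 than at day 3 (1.77% of all genes called, 1.36% lower and 0.413% higher).

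**Figure D1:**
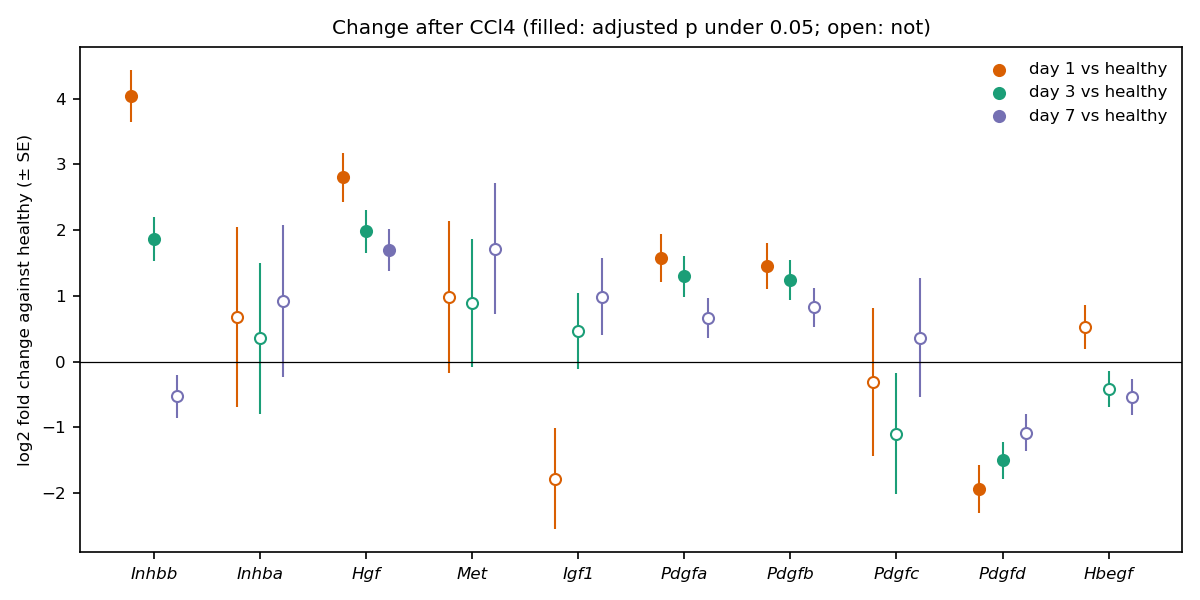
The log2 fold change against healthy LSECs (y axis, with its SE from edgeR's quasi-likelihood fit) of the 10 members at day 1 (orange), day 3 (green) and day 7 (purple). Filled points have an adjusted p under 0.05. Inhbb is filled at days 1 and 3, at 4.04 and 1.86, and Pdgfd is the member filled below the zero line, at -1.94 and -1.51.

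The promoters of the called members are shown because these genes moved over the same days. Each sequence is the 250 bases before a RefSeq start of the gene (GRCm38.p6), 5′ to 3′ on the gene's strand, with matches to the motifs searched in capitals. Of the 10 members, 8 had a start in the table used, Pdgfb and Hbegf being the exceptions. Hgf and Pdgfa had 2 starts each, and the one nearer to the outermost GENCODE start is shown. The windows are chr1:119422249-119422498 on the minus strand for Inhbb, chr5:16553245-16553494 on the plus strand for Hgf, chr5:138994945-138995194 on the minus strand for Pdgfa, and chr9:6168236-6168485 on the plus strand for Pdgfd.
Inhbb: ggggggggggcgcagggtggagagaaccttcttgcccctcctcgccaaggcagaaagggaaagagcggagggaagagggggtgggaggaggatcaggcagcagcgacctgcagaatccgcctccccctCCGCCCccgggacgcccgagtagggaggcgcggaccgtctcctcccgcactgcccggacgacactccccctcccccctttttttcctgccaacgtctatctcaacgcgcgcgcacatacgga
Hgf: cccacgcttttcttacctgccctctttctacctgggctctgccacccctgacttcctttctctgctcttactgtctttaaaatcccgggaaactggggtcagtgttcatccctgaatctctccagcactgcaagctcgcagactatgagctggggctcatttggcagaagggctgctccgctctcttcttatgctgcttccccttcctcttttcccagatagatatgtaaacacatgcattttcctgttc
Pdgfa: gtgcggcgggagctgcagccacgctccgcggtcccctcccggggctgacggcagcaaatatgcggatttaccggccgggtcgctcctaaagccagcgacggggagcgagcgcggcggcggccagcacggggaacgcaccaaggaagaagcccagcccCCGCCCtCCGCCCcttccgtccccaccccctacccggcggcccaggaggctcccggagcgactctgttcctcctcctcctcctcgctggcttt
Pdgfd: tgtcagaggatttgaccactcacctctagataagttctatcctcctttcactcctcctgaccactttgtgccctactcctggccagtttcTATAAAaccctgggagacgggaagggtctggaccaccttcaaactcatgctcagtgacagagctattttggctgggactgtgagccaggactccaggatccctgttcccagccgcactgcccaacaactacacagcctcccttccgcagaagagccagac
The windows of Inhbb and Pdgfa are rich in G and C, 68.0% and 72.4%, and hold 21 and 28 CpG dinucleotides, while those of Hgf (50.8%, 4 CpG) and Pdgfd (53.6%, 3 CpG) lie near the median of all 32851 windows (52.4%, 6 CpG). The Sp1 GC box GGGCGG, searched on both strands, occurs in the Inhbb window from base -122 to -117 and in the Pdgfa window from -93 to -88 and from -86 to -81, all read there as CCGCCC, and 32.7% of all windows hold it. TATAAA occurs in the Pdgfd window from -160 to -155, and in 12.4% of all windows. The Hgf window holds none of the motifs searched. The others were the AP-1 site TGANTCA (in 6.75% of all windows), the cAMP response element TGACGTCA (1.55%), the C/EBP motif TTNNGCAA (9.56%), the core ACGTG (16.6%), the palindrome GTCTAGAC (0.167%) and the NF-kB consensus (3.90%), and none of these occurs in the 4 sequences shown. A match is a run of letters and not a site in use. The Pdgfa start lies 2426 bases from the outermost annotated start of the gene in GENCODE, the Pdgfd start 98 bases, and the Inhbb and Hgf starts fall on it.

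Inhbb encodes the beta B subunit of activin B and inhibin B (ENSMUSG00000037035, chr1:119415465-119422248, minus strand). It was measured at 31.9, 35.4, 32.6 and 33.3 CPM in the healthy mice, 559 and 535 CPM at day 1, 108, 198, 87.4 and 90.2 CPM at day 3 and 9.98, 28.03, 20.7 and 33.7 CPM at day 7. Both day 1 mice lay far above all other samples, every day 3 mouse lay above every healthy mouse, and the day 7 values overlapped the healthy ones with 3 of the 4 day 7 mice below all healthy mice. The rise was 16.4-fold at day 1 (log2 fold change 4.04, SE 0.40, adjusted p = 0.000134), and at day 3 the difference was still a rise (log2 fold change 1.86, SE 0.34, adjusted p = 0.00701). At day 7 the log2 fold change was -0.53 ± 0.33 (SE, adjusted p = 0.376 by edgeR). The level fell by 2.18 on the log2 scale from day 1 to day 3 (SE 0.39, edgeR adjusted p = 0.0114) and by 2.39 from day 3 to day 7 (SE 0.34, edgeR adjusted p = 0.00715). Leaving out either day 1 mouse ended the first of these calls (adjusted p 0.0688 and 0.0985), and leaving out day 7 replicate 3 (adjusted p 0.0552) or fitting only the 2 groups compared (adjusted p 0.0796) ended the second. The calls against healthy LSECs at days 1 and 3 held whichever mouse was left out.

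Per length, Inhbb was the second most abundant member in healthy LSECs, at 7.82 ± 0.356 RPKM (SD, n = 4), and the most abundant at day 1, at 129 ± 4.04 RPKM (SD, n = 2). That took it from percentile 78.9 to percentile 98.2 of the tested genes' RPKM. Monocyte and neutrophil markers summed to 8346 and 4302 CPM in the day 1 mice, against 508 to 1371 CPM in the healthy mice. At days 3 and 7, when Inhbb was lower than at day 1, they summed to 1354 to 12428 and 4142 to 9580 CPM. The part of these cells' RNA in the Inhbb rise was not tested. The 3 genes whose log2 CPM ran most like that of Inhbb over the 14 samples were Tnfrsf12a, the receptor for the cytokine TWEAK (Pearson r = 0.973), Pgs1, an enzyme of cardiolipin synthesis (r = 0.967), and Txnrd1, a thioredoxin reductase (r = 0.957). These correlations are descriptions over samples that share groups and libraries.

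Inhba encodes the beta A subunit of activin A (ENSMUSG00000041324, chr13:16011851-16031621, plus strand). It was rare, with 0 to 743 counts per sample. Its level was 0.758, 0.517, 0.936 and 8.504 CPM in the healthy mice, 5.65 and 2.94 CPM at day 1, 5.66, 4.51, 3.54 and 0 CPM at day 3 and 2.14, 8.99, 2.91 and 6.17 CPM at day 7. Healthy replicate 4 stood at 8.504 CPM against less than 1 CPM in the other healthy mice, and day 3 replicate 4 was listed at 0. Inhba was not called at day 1 (log2 fold change 0.68, SE 1.37, adjusted p = 0.882), at day 3 (log2 fold change 0.35, SE 1.15, adjusted p = 0.892) or at day 7 (log2 fold change 0.92, SE 1.16, adjusted p = 0.696) by edgeR. Without these 2 libraries together, a setting chosen after seeing the data, it was called higher at all 3 times, with log2 fold changes of 2.53, 2.54 and 2.79 and edgeR adjusted p of 0.0206, 0.0161 and 0.0128. Those libraries are the ones with the high hepatocyte marker sum and the low number of detected genes, and the part of either in the result was not tested beyond leaving them out. Leaving out only 1 mouse of the groups compared, healthy replicate 4 included, gave no call at any time. The edgeR adjusted p was then at least 0.317 at day 3 and 0.19 at day 7. Day 3 replicate 4 is in neither group compared at days 1 and 7.

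Among receptors and inhibitors of the activins, Bambi was lower at day 1 and Smad7 at day 3. Of the 16 listed genes of the activin pathway, 15 were tested (Tdgf1 was not), and by edgeR 1 was called lower at day 1 (1.64% of all genes lower), 1 lower at day 3 (2.58% of all genes lower) and 0 at day 7 (2 at an unadjusted p under 0.05, and 2 by DESeq2). Bambi, a decoy receptor without a kinase domain, fell at day 1 from 40.6–57.3 CPM in healthy LSECs to 21.7 and 20.2 CPM (log2 fold change -1.25, SE 0.30, adjusted p = 0.0318). Smad7, an intracellular inhibitor of the pathway, fell at day 3 from 90.7–119 CPM to 58.9–78.7 CPM (log2 fold change -0.63, SE 0.15, adjusted p = 0.0259). The Bambi call was lost without healthy replicate 1, 2 or 3 or either day 1 mouse (adjusted p 0.0598 to 0.249), and the Smad7 call without healthy replicate 1, 2 or 3 or day 3 replicate 2 (adjusted p 0.0586 to 0.0849).
The type II receptor genes Acvr2a and Acvr2b had log2 fold changes of -0.12 ± 0.31 and -0.52 ± 0.36 (SE) at day 1, and the type I receptor gene Acvr1b 0.29 ± 0.42. None of the 3 passed the test at any time (edgeR adjusted p 0.515 to 0.965). Acvr2a lay between 10.2 and 28.3 CPM over all samples, Acvr2b between 5.36 and 14.1 CPM, and Acvr1b between 6.49 and 20.7 CPM. The follistatin gene Fst did not exceed 2.74 CPM and the related Fstl3 did not exceed 4.000 CPM in any sample. Neither inhibitor gene was called, with log2 fold changes at day 1 of -1.23 ± 1.09 for Fst and 1.06 ± 1.24 for Fstl3. Fstl3 shares 1157 of its 2445 exon bases with Prss57 on the other strand, so its counts are uncertain.

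**Figure D2:**
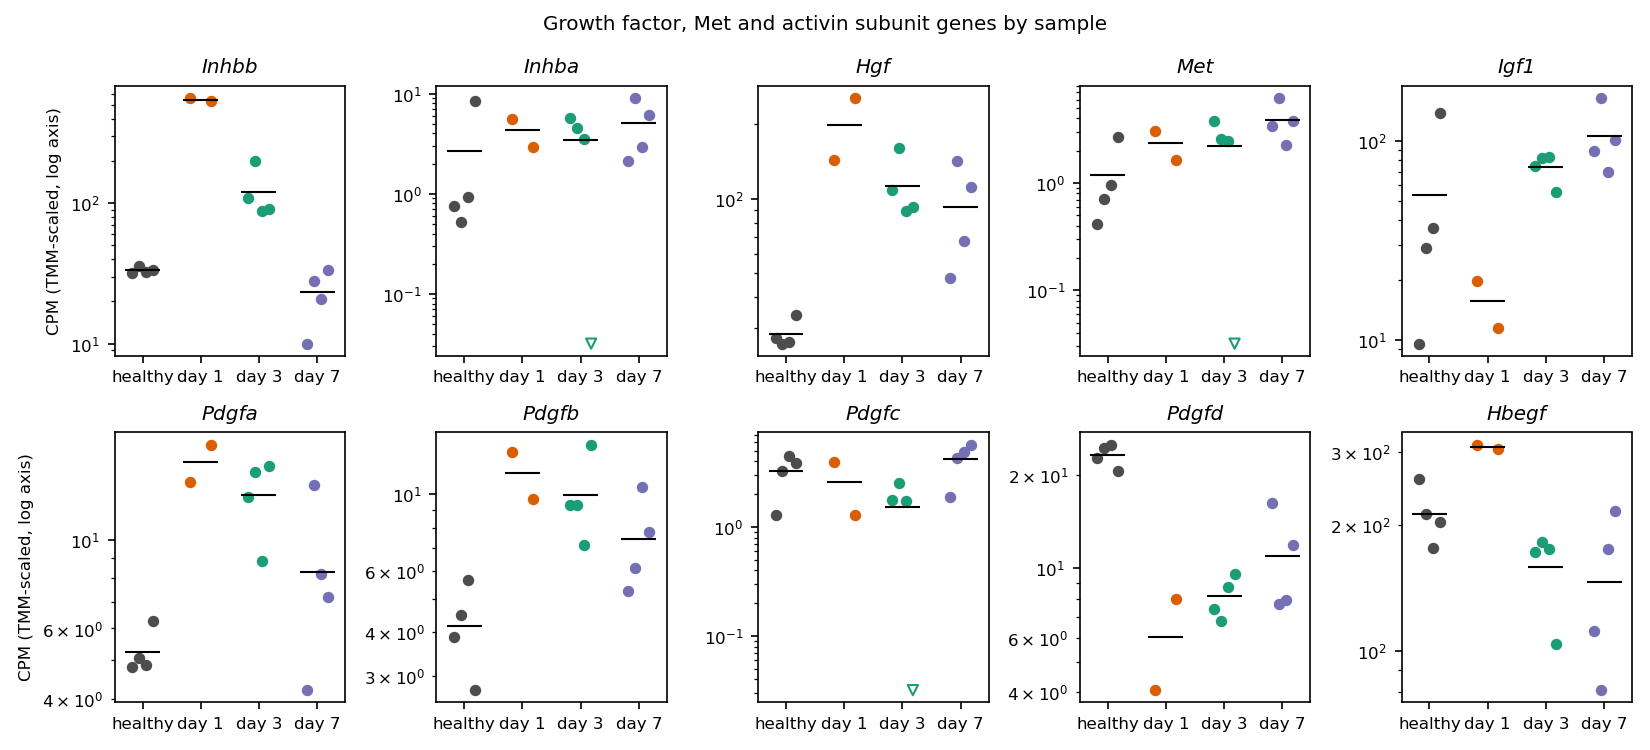
CPM of each member (y axis, log scale, a different range in each panel) in every sample, grouped on the x axis as healthy (4 mice), day 1 (2 mice), day 3 (4 mice) and day 7 (4 mice). Points are samples, lines are group means, and an open triangle marks a library under 3 counts, drawn at the level of 3 counts. Inhbb and Hgf stand above all healthy samples at days 1 and 3, Pdgfd stands below them at every time after CCl4, and the triangles of Inhba, Met and Pdgfc belong to day 3 replicate 4.

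Hgf encodes hepatocyte growth factor (ENSMUSG00000028864, chr5:16553495-16620152, plus strand). It was measured at 27.4, 25.99, 26.3 and 33.9 CPM in the healthy mice, 143 and 254 CPM at day 1, 109, 160.2, 88.9 and 92.4 CPM at day 3 and 47.7, 142, 67.2 and 112 CPM at day 7. All 10 mice given CCl4 lay above all 4 healthy mice, and the lowest of them, day 7 replicate 1, was also the day 7 mouse with the fewest stellate cell transcripts (239 summed CPM of 10 markers). Hgf rose at day 1 (log2 fold change 2.80, SE 0.37, adjusted p = 0.000931), at day 3 (log2 fold change 1.99, SE 0.33, adjusted p = 0.00433) and at day 7 (log2 fold change 1.70, SE 0.32, adjusted p = 0.0161). The day 7 call was lost without healthy replicate 1, 2 or 3 or day 7 replicate 2, with adjusted p between 0.0536 and 0.0619. From day 1 to day 3 the log2 fold change was -0.82 ± 0.38 (SE, edgeR adjusted p = 0.311), and from day 3 to day 7 it was -0.29 ± 0.32 (adjusted p = 0.676).

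Stellate cells are a known source of Hgf, and the gate on UV autofluorescence served to leave them out. Their 10 markers summed to 132 to 255 CPM in healthy LSECs and to 99.4 to 117 CPM at day 1, where the mean of Hgf was highest. At days 3 and 7 the stellate sum was 425 to 1272 and 239 to 3332 CPM, and within day 7 the order of the mice by Hgf was that of the stellate sum (replicate 1 lowest, then 3, 4 and 2). At day 3 replicate 3 was lowest in both, but Hgf was highest in replicate 2 and the stellate sum in replicate 1. The part of stellate cell RNA in the Hgf level was not tested at any time. The genes that ran most like Hgf over the 14 samples were Adamts5, which cleaves proteoglycans (r = 0.941), Fblim1, an adaptor at cell adhesions (r = 0.930), and Synpo, an actin-binding protein (r = 0.927). Hgf shares 484 of its 7186 exon bases with an unverified transcript on the same strand, Gm43489.

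Met, the HGF receptor (ENSMUSG00000009376, chr6:17463800-17573980, plus strand), was the least abundant member per length in healthy LSECs, at 0.155 ± 0.132 RPKM (SD, n = 4), and had 0 to 441 counts per sample. Its level was 0.419, 0.705, 0.967 and 2.68 CPM in the healthy mice, 3.05 and 1.65 CPM at day 1, 3.798, 2.57, 2.48 and 0 CPM at day 3 and 3.43, 6.17, 2.25 and 3.79 CPM at day 7. The highest healthy value was that of replicate 4, which overlapped the values after CCl4. Met had log2 fold changes of 0.98 ± 1.16, 0.89 ± 0.98 and 1.71 ± 1.00 (SE) at days 1, 3 and 7, and none was called (edgeR adjusted p 0.756, 0.648 and 0.34). Under at least 1 alternative edgeR or DESeq2 setting Met passed at days 3 and 7 (lowest adjusted p 0.0223 and 0.0118). These settings include the fit without both healthy replicate 4 and day 3 replicate 4, which was chosen after seeing the data. That fit drops the highest healthy value of Met and the library listed at 0. Leaving out only 1 mouse gave no call at these times (edgeR adjusted p at least 0.181 and 0.209).

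Of the 9 other genes listed for HGF and MET, which cover the proteases that activate HGF, their inhibitors, the related ligand and receptor Mst1 and Mst1r, and the adaptor Gab1, 1 was called higher at day 3 by edgeR and 0 at days 1 and 7. At an unadjusted p under 0.05 there were 3 lower at day 1 and 1 lower at day 7, and DESeq2 called 3 and 0. The gene called at day 3 was Plau, urokinase, a protease known to cleave PDGF-D and, in some settings, HGF. It was measured at 18.7, 32.7, 24.5 and 17.1 CPM in the healthy mice, 23.1 and 29.7 CPM at day 1, 84.6, 47.9, 67.7 and 100.3 CPM at day 3 and 11.8, 29.5, 29.96 and 23.3 CPM at day 7. Every day 3 value lay above every healthy and every day 7 value. Plau rose at day 3 (log2 fold change 1.69, SE 0.32, adjusted p = 0.00807), a call that held whichever mouse was left out, and fell by 1.67 on the log2 scale from day 3 to day 7 (SE 0.32, edgeR adjusted p = 0.0222). The fall lost its call without any one of 6 of the 8 mice (all but day 3 replicates 2 and 4), with adjusted p up to 0.118, and in a fit of the 2 groups alone (adjusted p 0.0999).

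Of the 4 PDGF ligand genes, Pdgfa and Pdgfb rose and Pdgfd fell, while Pdgfc was not called at any time. Pdgfa encodes the PDGF-A chain (ENSMUSG00000025856, chr5:138976014-138997370, minus strand). It was measured at 4.81, 5.06, 4.87 and 6.26 CPM in the healthy mice, 13.96 and 17.2 CPM at day 1, 12.8, 14.8, 8.82 and 15.2 CPM at day 3 and 4.21, 13.6, 8.22 and 7.200 CPM at day 7. All day 1 and day 3 values lay above the healthy ones, while the day 7 range spanned them. Pdgfa rose at day 1 (log2 fold change 1.57, SE 0.36, adjusted p = 0.0261) and at day 3 (log2 fold change 1.30, SE 0.31, adjusted p = 0.0249), and at day 7 it had a log2 fold change of 0.66 ± 0.31 (SE, edgeR adjusted p = 0.239). The day 1 call was lost without healthy replicate 1, 2 or 3 or either day 1 mouse (adjusted p 0.0632 to 0.212). The day 3 call was lost without any healthy mouse or day 3 replicate 1 or 2 (adjusted p 0.0522 to 0.0739) and with no filter on low counts (adjusted p 0.0606). Its exons overlap the antisense gene 6330403L08Rik over 813 of 3119 bases, and whether the authors counted by strand is not stated in the sources used here.

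Pdgfb encodes the PDGF-B chain, a ligand of both PDGF receptors (ENSMUSG00000000489, chr15:79995874-80014977, minus strand). Its level was 3.87, 4.49, 5.65 and 2.72 CPM in the healthy mice, 13.3 and 9.697 CPM at day 1, 9.33, 9.32, 7.15 and 13.9 CPM at day 3 and 5.27, 6.13, 10.5 and 7.76 CPM at day 7. The day 1 and day 3 values again lay above all healthy ones, and day 7 replicate 1 fell within the healthy range. Pdgfb rose at day 1 (log2 fold change 1.46, SE 0.35, adjusted p = 0.0342) and at day 3 (log2 fold change 1.25, SE 0.30, adjusted p = 0.026), and had a log2 fold change of 0.82 ± 0.30 (SE, edgeR adjusted p = 0.142) at day 7. The day 1 call was lost without healthy replicate 1, 2 or 4 or either day 1 mouse (adjusted p 0.066 to 0.499), and the day 3 call without healthy replicate 1, 2 or 4 (adjusted p 0.0636 to 0.0959). With no filter on low counts neither was called (adjusted p 0.0703 and 0.0816), nor was the day 1 rise on library size only (adjusted p 0.0501) or the day 3 rise in a fit of the 2 groups alone (adjusted p 0.0699). The 5 platelet and megakaryocyte markers, whose cells also carry PDGF chains, summed to 23.9 to 40.8 CPM in healthy LSECs, 102 to 284 CPM at day 1, 47.8 to 159.8 CPM at day 3 and 20.6 to 34.4 CPM at day 7, with Pf4 the highest. The sums, like Pdgfa and Pdgfb, lay above all healthy values at days 1 and 3, where 3 and 1 of the 5 markers were called higher by edgeR. They were not compared with the 2 genes mouse by mouse, and their part in the result was not tested. Among the 5 markers, Gp1bb shares 1902 of its 2087 exon bases with Sept5 on the same strand, so its counts are uncertain.

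Pdgfd encodes PDGF-D, a ligand of the beta receptor that is secreted in a latent form and cleaved by urokinase (ENSMUSG00000032006, chr9:6168584-6378850, plus strand). It was measured at 22.7, 24.3, 24.9 and 20.5 CPM in the healthy mice, 4.07 and 7.98 CPM at day 1, 7.43, 6.804, 8.705 and 9.63 CPM at day 3 and 16.2, 7.69, 7.94 and 11.9 CPM at day 7. All 10 mice given CCl4 lay below all 4 healthy mice, with day 7 replicate 1 the nearest to them. Pdgfd fell at day 1 (log2 fold change -1.94, SE 0.37, adjusted p = 0.00929) and at day 3 (log2 fold change -1.51, SE 0.28, adjusted p = 0.00746). At day 7 it had a log2 fold change of -1.08 ± 0.28 (SE) with an edgeR adjusted p of 0.0502, just above the threshold. Without day 7 replicate 1 the day 7 fall was called (-1.34, adjusted p = 0.0185), and without day 1 replicate 1 the day 1 fall was not (-1.57, adjusted p = 0.283). The genes most like Pdgfd over the 14 samples were Tmem106a (r = 0.985), Dpp4, a membrane peptidase (r = 0.983), and Tmem204, a membrane protein of endothelial cells (r = 0.978). The summed LSEC markers were lower after CCl4 too, though by less than Pdgfd, and their part in the result was not tested.

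Pdgfc encodes PDGF-C, a latent ligand of the alpha receptor that tissue plasminogen activator cleaves (ENSMUSG00000028019, chr3:81036416-81214040, plus strand). It was rare, with 0 to 500 counts per sample. Its level was 1.28, 3.29, 4.52 and 3.85 CPM in the healthy mice, 3.91 and 1.299 CPM at day 1, 1.78, 2.55, 1.73 and 0 CPM at day 3 and 1.88, 4.28, 4.83 and 5.68 CPM at day 7. The groups overlapped at every time. Log2 fold changes of Pdgfc were -0.31 ± 1.12, -1.10 ± 0.92 and 0.36 ± 0.91 (SE) at days 1, 3 and 7, and none was called (edgeR adjusted p 0.943, 0.534 and 0.858).

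Per length, Pdgfd was the most abundant PDGF ligand gene in healthy LSECs and Pdgfa at days 1 and 3, while the day 7 mice were split. Pdgfd made up 68.8% ± 2.98 (SD, n = 4) of the 4 genes' summed RPKM in healthy LSECs. After CCl4 its share was 18.5% ± 7.43 at day 1 (n = 2), 27.9% ± 5.82 at day 3 and 40.2% ± 16.7 at day 7 (both n = 4). Pdgfa made up 15.9% ± 2.99, 48.98% ± 4.19, 43.7% ± 5.08 and 30.2% ± 13.2 in the same groups, and Pdgfb 9.33% ± 2.06, 27.4% ± 7.72, 25.03% ± 3.19 and 20.4% ± 6.31. In every healthy mouse Pdgfd was the largest share, and in both day 1 mice and every day 3 mouse Pdgfa was. At day 7 it was Pdgfd in replicates 1 and 4 and Pdgfa in replicates 2 and 3. The 4 genes together measured 9.91 to 11.7 RPKM in healthy LSECs, 9.72 to 10.6 RPKM at day 1, 7.65 to 11.3 RPKM at day 3 and 8.11 to 9.13 RPKM at day 7. The shares are descriptions and were not tested apart from the genes themselves.

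**Figure D3:**
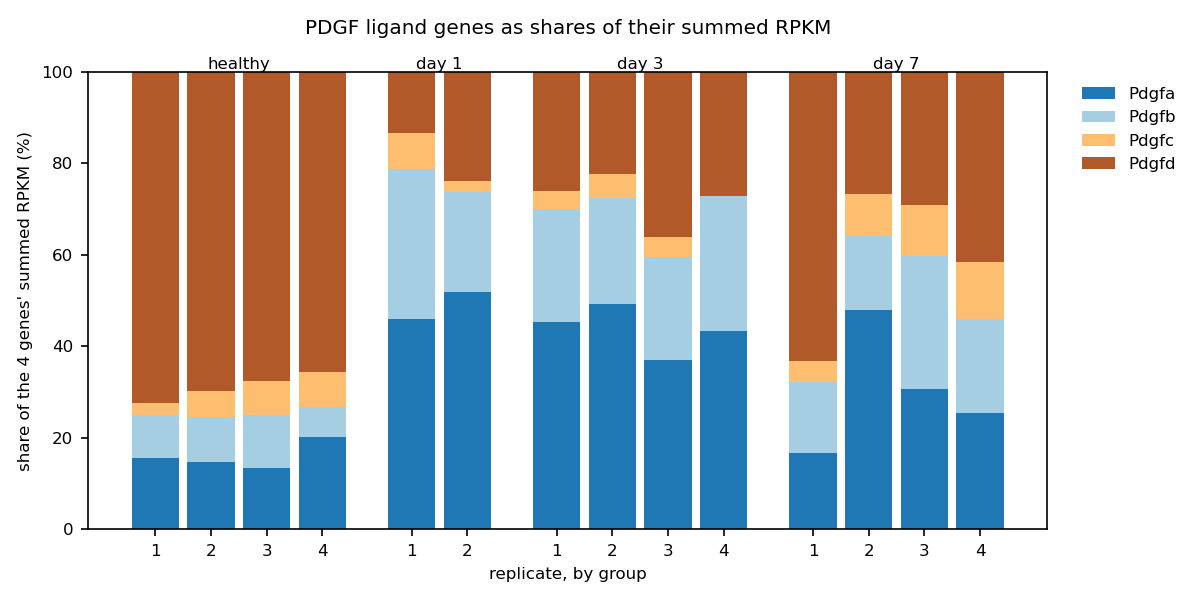
Share (y axis, percent) of Pdgfa, Pdgfb, Pdgfc and Pdgfd in their summed RPKM in each of the 14 samples (x axis, replicate number within each group). Pdgfd holds 65.6 to 72.5% in the healthy mice and 22.4 to 36.1% at day 3, and day 7 replicate 1 (63.2%) lies nearest to the healthy mice.

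The receptors of these ligands were called at days 3 and 7 and not at day 1. Of the 6 listed PDGF pathway genes, 0 were called by edgeR at day 1 (1 at an unadjusted p under 0.05, and 0 by DESeq2), 3 were called higher at day 3 and 4 at day 7. Pdgfrb, the beta receptor of pericytes, was measured at 1.76, 1.69, 2.53 and 1.92 CPM in the healthy mice, 1.41 and 1.45 CPM at day 1, 17.8, 16.2, 10.2 and 34.6 CPM at day 3 and 3.14, 68.5, 19.8 and 30.9 CPM at day 7. Every day 3 and day 7 value lay above every healthy value, and day 7 replicate 1 was the lowest of them. Pdgfrb rose at day 3 (log2 fold change 3.32, SE 0.67, adjusted p = 0.0116) and day 7 (log2 fold change 3.95, SE 0.69, adjusted p = 0.0109), and leaving out healthy replicate 1 took the day 7 adjusted p to 0.0503. From day 1 to day 3 Pdgfrb also rose (log2 fold change 3.78, SE 0.93, adjusted p = 0.049), a call lost without any single mouse (adjusted p 0.0604 to 0.454).
Pdgfra, the alpha receptor, was measured at 1.57, 1.12, 1.88 and 2.48 CPM in the healthy mice, 3.04 and 1.52 CPM at day 1, 12.2, 11.2, 6.14 and 13.6 CPM at day 3 and 3.07, 42.01, 9.48 and 19.02 CPM at day 7. It rose at day 3 (log2 fold change 2.61, SE 0.62, adjusted p = 0.0232) and day 7 (log2 fold change 3.38, SE 0.64, adjusted p = 0.0149). Both Pdgfra calls were lost without healthy replicate 1, 2 or 3, and the day 3 call also without day 3 replicate 1 (adjusted p 0.0534 to 0.0727).
Both receptors are themselves stellate cell genes. Of the 10 stellate cell markers, 6 were called higher at day 3, 9 at day 7 and 0 at day 1 by edgeR (2 were lower at day 1 at an unadjusted p under 0.05, and 2 by DESeq2), and within day 7 the order of the mice by Pdgfra, Pdgfrb and the stellate sum was the same (replicate 1 lowest, then 3, 4 and 2). At day 3 the orders differed. Replicate 3 was lowest in each, but both receptors were highest in replicate 4 (stellate sum 1004 CPM) and the stellate sum in replicate 1 (1272 CPM). The part of stellate cell RNA in the receptor values was not tested.

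The other called genes of this list were Sparc, a matrix protein that binds PDGF, and, at day 7, Plat and Pdgfrl. Sparc was among the abundant genes, at 2439.5–2935 CPM in healthy LSECs and 3907–4780.1 CPM at day 3 (log2 fold change 0.75, SE 0.16, adjusted p = 0.0161), and its call was lost without healthy replicate 2 or 4 or day 3 replicate 1 or 3 (adjusted p 0.053 to 0.0778), with no filter on low counts (adjusted p 0.106) and in a fit of the 2 groups alone (adjusted p 0.05597). Plat, tissue plasminogen activator, rose at day 7 from 2.51–3.63 CPM to 3.71–24.7 CPM (log2 fold change 2.16, SE 0.46, adjusted p = 0.0253), a call lost without healthy replicate 1, 2 or 3 or day 7 replicate 2 or 4 (adjusted p 0.0617 to 0.0897). Pdgfrl, a receptor-like protein, rose from 0.623–1.37 CPM to 2.05–5.38 CPM (log2 fold change 2.01, SE 0.47, adjusted p = 0.0374), a call lost without any single mouse but day 7 replicate 1 (adjusted p 0.0695 to 0.124) and with no filter (adjusted p 0.0637).

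**Figure D4:**
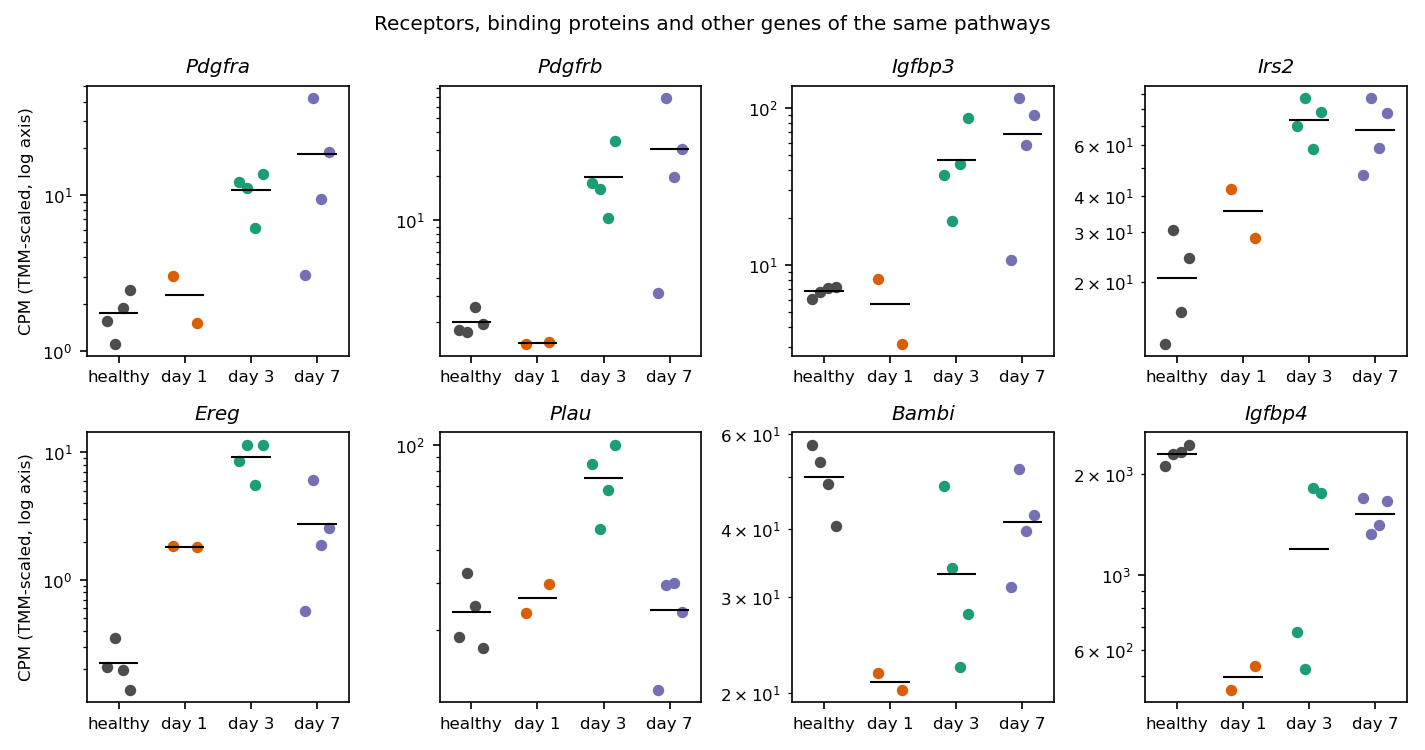
CPM (y axis, log scale, a different range in each panel) of 8 called genes of the members' pathways in each sample, by group. Points are samples and lines are group means. Pdgfra, Pdgfrb and Igfbp3 are above all healthy samples at days 3 and 7, Plau at day 3 and Ereg at every time. Bambi is below all healthy samples at day 1 and Igfbp4 at every time after CCl4.

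Igf1 (ENSMUSG00000020053, chr10:87858265-87937042, plus strand) was measured at 9.54, 28.9, 36.5 and 139 CPM in the healthy mice, 19.7 and 11.4 CPM at day 1, 74.7, 81.7, 83.1 and 55.4 CPM at day 3 and 88.8, 164, 70.2 and 101 CPM at day 7. The healthy mice spread widely, with replicate 4 at 139 CPM and the others at 9.54 to 36.5 CPM. Both day 1 mice lay within the healthy range and every day 3 and day 7 mouse lay above both day 1 mice. Igf1 was not called against healthy LSECs at day 1 (log2 fold change -1.78, SE 0.77, adjusted p = 0.243), day 3 (log2 fold change 0.46, SE 0.58, adjusted p = 0.692) or day 7 (log2 fold change 0.99, SE 0.58, adjusted p = 0.347) by edgeR, nor from day 1 to day 3 (log2 fold change 2.24, SE 0.79, adjusted p = 0.177). Without healthy replicate 4 the day 7 difference was called higher (2.10, adjusted p = 0.023). The hepatocyte marker sum also varied between mice. Unlike Igf1, it lay below all healthy values at day 1. It was 176 to 7245 CPM in healthy LSECs with replicate 4 at the top, 31.7 to 129 CPM at day 1, 789 to 2824 CPM at day 3 and 767 to 6078 CPM at day 7, and Alb, the highest of the list, ranged from 12.3 to 2691 CPM. The part of hepatocyte RNA in the Igf1 values was not tested. The genes most like Igf1 were Apoc1, an apolipoprotein (r = 0.954), Fndc4 (r = 0.952) and Sdc2, a heparan sulfate proteoglycan (r = 0.950).

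The IGF pathway was covered by 18 further genes. Here edgeR called 1 higher and 1 lower at day 1, 2 higher and 1 lower at day 3, and 3 higher at day 7. DESeq2 called 1 higher and 4 lower at day 1, and 4 higher and 3 lower at day 3. At day 7 it called 5 higher and 1 lower. Igfbp4, which binds IGFs and was among the most abundant genes of these lists, fell at day 1 from 2103–2440.1 CPM to 455 and 538 CPM (log2 fold change -2.20, SE 0.46, adjusted p = 0.0149). Leaving out either day 1 mouse ended that call (adjusted p 0.139 and 0.343). At day 3 the Igfbp4 values parted, with 678, 525, 1819 and 1757 CPM, and at day 7 they were 1325 to 1694 CPM. All of these lay below every healthy value, though Igfbp4 was not called at either time (edgeR adjusted p 0.115 and 0.329). Stc1, stanniocalcin-1, rose at day 1 from 1.29–3.81 CPM to 12.8 and 10.5 CPM (log2 fold change 2.15, SE 0.52, adjusted p = 0.035), a call lost without any single mouse but healthy replicate 3 (adjusted p 0.0627 to 0.377) and with no filter (adjusted p 0.0553).
Igfbp3, the main carrier of IGFs in blood, was measured at 6.06, 6.72, 7.17 and 7.18 CPM in the healthy mice, 8.11 and 3.15 CPM at day 1, 37.1, 19.1, 43.9 and 86.2 CPM at day 3 and 10.8, 115, 57.9 and 90.3 CPM at day 7. It rose at day 3 (log2 fold change 2.78, SE 0.61, adjusted p = 0.016) and day 7 (log2 fold change 3.34, SE 0.62, adjusted p = 0.0142). The day 3 call was lost without healthy replicate 1 or 2 and the day 7 call without healthy replicate 1, 2 or 3 (adjusted p 0.0504 to 0.0614). Day 7 replicate 1, the day 7 mouse with the lowest stellate sum, was again the lowest of its group. Day 3 replicate 3, the day 3 mouse with the lowest stellate sum (425 CPM), was above replicates 1 and 2 in Igfbp3. The part of stellate cell RNA in the Igfbp3 values was not tested.
Irs2, an adaptor of the insulin and IGF receptors, rose at day 3 (log2 fold change 1.82, SE 0.29, adjusted p = 0.00383) and day 7 (log2 fold change 1.71, SE 0.29, adjusted p = 0.00979), from 12.2–30.4 CPM to 58.1–87.2 CPM and 47.3–87.05 CPM, and both calls held whichever mouse was left out. Igf2r, the receptor that clears IGF-2, rose at day 7 from 7.83–9.67 CPM to 12.1–25.97 CPM (log2 fold change 1.11, SE 0.27, adjusted p = 0.042), a call lost without any single mouse but day 7 replicate 1 (adjusted p 0.0721 to 0.147) and with no filter (adjusted p 0.0873). Igf2 fell at day 3 (log2 fold change -3.43, SE 0.85, adjusted p = 0.0283) at a low level, from 0.135–1.04 CPM to 0–0.109 CPM, and lost its call without healthy replicate 1 or 2 or day 3 replicate 1 or 2 (adjusted p 0.0515 to 0.0698) and in a fit of the 2 groups alone (adjusted p 0.0836). From day 3 to day 7 Igf2 rose (log2 fold change 4.47, SE 0.89, edgeR adjusted p = 0.0263). That call was lost without any one of 6 of the 8 mice (adjusted p 0.0503 to 0.102) and in the 2-group fit (adjusted p 0.107). Igf2 shares 3596 of its 5723 exon bases with the protein-coding gene Gm49394 on the same strand, so its counts are uncertain. Igf1r, the IGF-1 receptor, was not called, with log2 fold changes of 0.22 ± 0.28, 0.36 ± 0.23 and 0.73 ± 0.23 (SE).

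Hbegf (ENSMUSG00000024486, chr18:36504927-36515805, minus strand) was the most abundant member per length in healthy LSECs, at 44.00 ± 7.04 RPKM (SD, n = 4), apart from all others. Its level was 258, 212, 177 and 203 CPM in the healthy mice, 311 and 304 CPM at day 1, 173, 182, 176 and 104 CPM at day 3 and 112, 80.7, 176 and 216 CPM at day 7. Both day 1 values lay above all healthy ones, and day 3 replicate 4 and day 7 replicates 1 and 2 lay well below the rest. The log2 fold changes were 0.53 ± 0.33, -0.42 ± 0.28 and -0.54 ± 0.28 (SE) at days 1, 3 and 7, and none was called (edgeR adjusted p 0.46, 0.417 and 0.279).

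The EGF receptor pathway was covered by 16 further genes. DESeq2 called 3 of them higher at day 1, 2 higher and 1 lower at day 3, and 2 higher at day 7. By edgeR, 1 was called at each time, Ereg, the ligand epiregulin. It was measured at 0.2096, 0.352, 0.198 and 0.137 CPM in the healthy mice, 1.84 and 1.82 CPM at day 1, 8.61, 11.4, 5.56 and 11.4 CPM at day 3 and 0.572, 6.04, 1.87 and 2.54 CPM at day 7. Every value after CCl4 lay above every healthy value, and the day 3 values lay above both day 1 values. Ereg rose at day 1 (log2 fold change 3.02, SE 0.65, adjusted p = 0.018), day 3 (log2 fold change 5.36, SE 0.65, adjusted p = 0.00122) and day 7 (log2 fold change 3.61, SE 0.60, adjusted p = 0.00945). The day 1 call was lost without any single mouse but healthy replicate 2 (adjusted p 0.052 to 0.166), and the day 3 and day 7 calls held whichever mouse was left out. The receptor gene Egfr was measured at 1.397, 2.38, 2.37 and 55.9 CPM in the healthy mice, 4.25 and 2.34 CPM at day 1, 4.34, 6.23, 10.8 and 11.5 CPM at day 3 and 22.96, 43.4, 6.44 and 19.4 CPM at day 7. It was highest in healthy replicate 4 and was not called, with log2 fold changes of -2.23 ± 1.34, -0.91 ± 0.98 and 0.57 ± 0.98 (SE). Without that mouse it was called higher at day 7 (edgeR adjusted p = 0.0151).

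Over the 5 lists, 64 of 65 pathway genes were tested, and 2 were called higher and 2 lower at day 1, 7 higher and 2 lower at day 3, and 8 higher and 0 lower at day 7 by edgeR (4 lower at an unadjusted p under 0.05, and 2 by DESeq2). The shares of all tested genes called in each direction are those given above for the members.

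By RPKM, the order of the members in healthy LSECs was Hbegf, Inhbb (7.82), Pdgfd (7.33), Igf1 (5.400), Hgf (3.95), Pdgfa (1.68), Pdgfb (1.01), Pdgfc (0.636), Inhba (0.419) and Met. The ranges of Inhbb, Pdgfd, Igf1 and Hgf overlapped with their neighbours, as did those of Pdgfb, Pdgfc, Inhba and Met, while Hbegf lay apart from Inhbb, Hgf from Pdgfa, and Pdgfa from Pdgfb. At day 1 the order began with Inhbb (129), Hbegf (63.6), Hgf (27.6) and Pdgfa (5.002), each apart from the next. At day 3 Hbegf (32.9), Inhbb (28.4) and Hgf (15.7) led with overlapping ranges, and at day 7 Hbegf (30.2), Hgf (12.8), Igf1 (10.7) and Inhbb (5.43) did.

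Markers of other liver cells were present in these sorted samples and differed between times. Monocyte and neutrophil markers summed to 508 to 1371 CPM in healthy LSECs, 4302 to 8346 CPM at day 1, 1354 to 12428 CPM at day 3 and 4142 to 9579.6 CPM at day 7, with Lyz2 the highest, and 4, 3 and 1 of the 8 were called higher. The 4 markers of injury macrophages, led by Gpnmb, summed to 7.195 to 22.4 CPM, 44.4 to 217 CPM, 224 to 379 CPM and 572 to 1465 CPM, and 2, 4 and 4 of them were called higher. Of the 10 LSEC markers, 2 were called higher and 1 lower at day 1, 1 higher and 1 lower at day 3, and 0 at day 7 by edgeR (4 at an unadjusted p under 0.05, and 3 by DESeq2). Of the 5 platelet markers 3, 1 and 1 were called higher. For comparison with the counts of all marker lists, 2.42%, 4.62% and 2.19% of all tested genes were called higher at days 1, 3 and 7. The shares called lower were 1.64%, 2.58% and 0.992%. Of the hepatocyte, Kupffer cell, B and T cell and cholangiocyte markers, 0 were called by edgeR against healthy LSECs. All 8 hepatocyte markers were lower at day 1 at an unadjusted p under 0.05 and by DESeq2, and 0 of them at days 3 and 7 by either. Of the Kupffer cell markers 1, 2 and 1 passed the unadjusted limit at days 1, 3 and 7 (DESeq2 called 1, 0 and 0), of the B and T cell markers 2 passed it at day 1 (DESeq2 called 0), and of the cholangiocyte markers 0 passed it at any time. In day 3 replicate 4, Retnlg, Ppbp, Cd3d, Krt19, Epcam and Msln were under 3 counts. Kupffer cell markers (Clec4f highest) summed to 149 to 1228 CPM, B and T cell markers (Cd79a highest) to 21.6 to 140.7 CPM, cholangiocyte markers (Epcam highest) to 1.05 to 25.98 CPM and mesothelial markers (Msln highest) to 0.108 to 27.4 CPM over all samples, and 1 of the 3 mesothelial markers was called higher at days 3 and 7. Macrophages, monocytes and stellate cells can express several members, and the part of their RNA in the members' values was not tested.

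**Figure D5:**
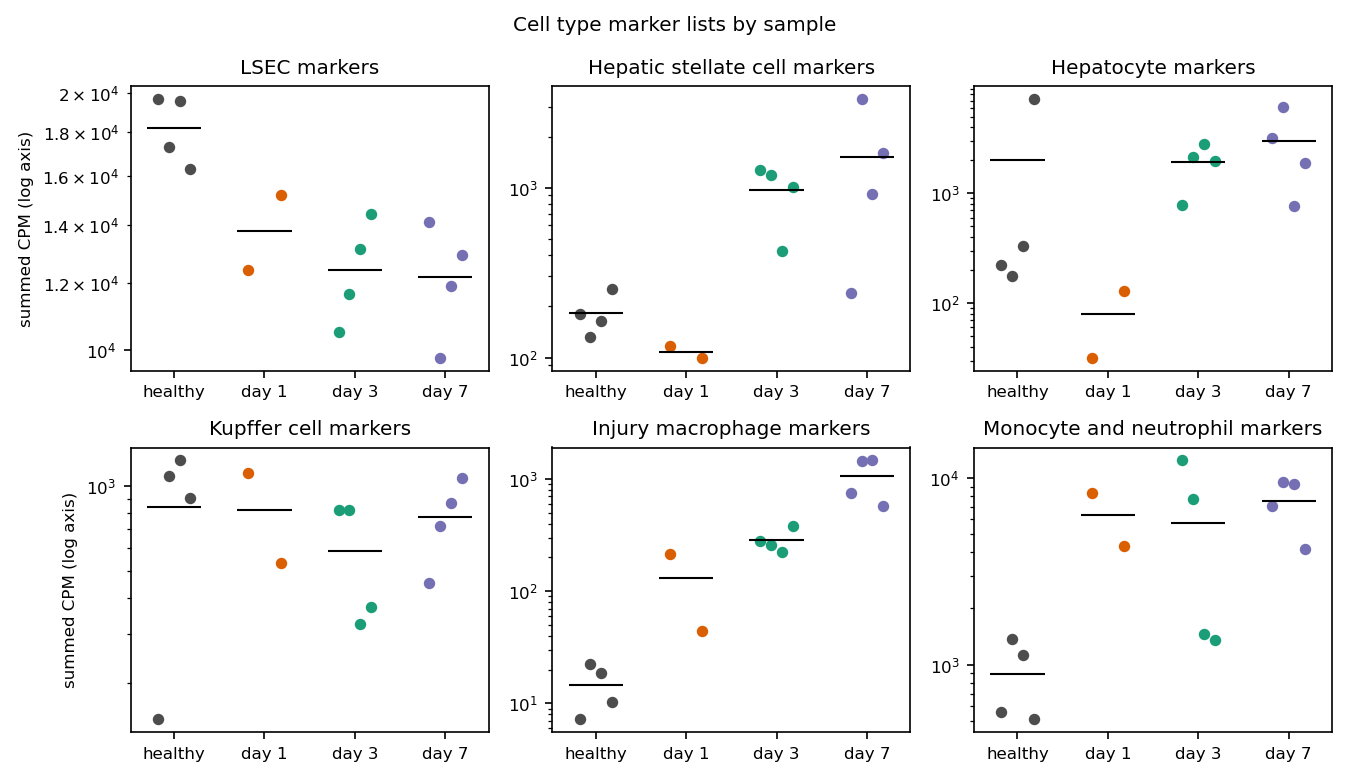
Summed CPM (y axis, log scale, a different range in each panel) of 6 cell type marker lists in each sample, by group. Points are samples and lines are group means. Stellate cell markers are below all healthy samples at day 1 and highest in day 7 replicate 2, and hepatocyte markers are highest in healthy replicate 4.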

How the data were processed

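RNA from sorted LSECs of 14 mice, each a different animal, was analysed in 4 groups taken from the sample labels. The reads were trimmed by the authors, aligned to the mouse genome GRCm38.p6 by STAR and assembled by StringTie. The deposited table holds raw whole-number counts for each Ensembl gene and mouse. The annotation release, the use of strand and how StringTie's output became counts are not given in the sources used here, and the methods describe the sequencing both as paired-end and as single-end. No column was left unused. Of 54524 genes, 54495 had an entry in GENCODE vM21, from which symbols, coordinates and exon lengths were taken. Counts of overlapping genes are therefore uncertain.

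Genes were filtered with filterByExpr (minimum count 10, minimum total count 15), scaled with TMM and tested with edgeR 4.0.16 (R 4.3.3, quasi-likelihood, a model of 4 group means over 14 samples, so that day 1 with 2 mice shares the spread), with Benjamini-Hochberg adjustment over 26626 genes and a threshold of 0.05. SE was taken as the size of the log2 fold change over the root of the F statistic. RPKM was CPM divided by the length of the merged exons in kilobases. Log2 CPM for correlations and sample gaps used a prior count of 2, and genes compared with a member had a mean of at least 1 CPM and did not overlap it. The members, the 5 pathway lists and the marker lists were chosen with earlier results of these data known. Named were all members, every pathway gene called against healthy LSECs (at most 4 per list and time), set receptors and inhibitors, the 3 genes most like each member and the highest gene of each marker list. The alternatives were DESeq2 1.42.0, RLE size factors, library size only, no filter, a fit of the 2 compared groups alone, a block for the sample number, and leaving out each sample. The numbers name different mice, and deviations of same-numbered samples correlated between -0.232 and 0.0962, so they were not treated as pairs. The closest samples of a group still differed beyond sampling noise (chi-square per degree of freedom at least 75.7), so none was a copy of another library. That comparison cannot show that the samples are independent mice, which was taken from the sample titles. Each was counted as 1 replicate. Promoters and start sites came from RefSeq tables on GRCm38.p6.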

Additional observations from a re-analysis of the deposited data

Results flagged for a closer look

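Day 3 replicate 4 lay far below the other day 3 mice for 4 members on the log2 CPM scale. Its gap to the next mouse, divided by the range of the group, was 0.917 for Met, 0.917 for Pdgfc, 0.905 for Hbegf and 0.915 for Inhba, against a critical value of 0.829 for 4 samples. Met, Pdgfc and Inhba were listed at 0 in that library and Hbegf at 104 CPM. In all, 30 groups of 4 samples were examined and these 4 stood out, where chance gives about 1 in 20, and all 4 belong to 1 library. The library had a count in 22986 genes at a total of 81612653 counts, the fewest genes of the series. In the same library Inhbb and Hgf lay within the range of the other day 3 mice, Igf1 below it, and Pdgfa, Pdgfb and Pdgfd above it.

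The Inhbb level differed between times. By edgeR's test of the difference, the log2 fold change was -2.18 from day 1 to day 3 (adjusted p = 0.0114, both day 1 mice above all 4 day 3 mice) and -2.39 from day 3 to day 7 (adjusted p = 0.00715, all 4 day 3 mice above all 4 day 7 mice). The first call was lost without either day 1 mouse, and the second without day 7 replicate 3 and in the 2-group fit.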

How the results depend on the processing

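Over the 10 members and 5 comparisons, 640 single values kept their direction and their side of the threshold under the alternatives, 38 lost a call, 16 gained one and 16 reversed. At day 1, 5 members were called, and 3 with the sample number as a replicate block, 6 without both healthy replicate 4 and day 3 replicate 4 (chosen after seeing the data) and 2 to 4 when 1 mouse was left out. At day 3, where 5 were called, there were 3 with no filter on low counts, 6 without both libraries, and 3 to 5 without 1 mouse. At day 7, where 1 was called, DESeq2 called 3, the model of only the 2 groups 2, the fit without both libraries 5, and fits without 1 mouse 0 to 2. From day 1 to day 3, where 1 was called, DESeq2, the 2-group model and the fit without both libraries each called 2, and fits without 1 mouse 0 to 1. From day 3 to day 7, where 1 was called, the 2-group model called 0, and fits without 1 mouse 0 to 1. For the pathway genes, 4 were called at day 1, and 15 by DESeq2, 9 in the 2-group model and 0 to 2 without 1 mouse. Of 9 at day 3, DESeq2 called 18 and fits without 1 mouse 4 to 15. Of 8 at day 7, DESeq2 called 14, the block 4, the fit without both libraries 18 and fits without 1 mouse 2 to 11. Over all genes, where 1080, 1915 and 846 were called at days 1, 3 and 7, DESeq2 called 2836, 3790 and 2713, the 2-group model 2325, 1108 and 3156, and the block 594 at day 1 and 435 at day 7. From day 1 to day 3, where 676 were called, they called 2407, 189 and 311, and from day 3 to day 7, where 472 were called, 1783, 1 and 244, with 287 on library size only and 157 with no filter. Without 1 mouse, 164 to 810, 943 to 3314 and 193 to 1509 genes were called at days 1, 3 and 7, 49 to 915 from day 1 to day 3 and 26 to 1652 from day 3 to day 7. The mice that moved a count against healthy LSECs by over 1.5 times were healthy replicate 1 and both day 1 mice at day 1, every healthy mouse and day 3 replicate 4 at day 3, and healthy replicates 1 to 3 and every day 7 mouse at day 7. Against healthy LSECs, the block ended the calls of Pdgfa at day 1, Pdgfb at days 1 and 3, Smad7 and Igf2 at day 3, Pdgfra at days 3 and 7, and Plat, Pdgfrl and Igf2r at day 7 (adjusted p 0.05103 to 0.0847), and the fit without both libraries those of Pdgfa, Pdgfb and Igfbp3 at day 3 and Stc1 at day 1 (adjusted p 0.0509 to 0.0922). The values that reversed were all of uncalled differences, and without 1 mouse they ran as follows. Hgf from day 3 to day 7 ran from -0.57 to 0.0686. Met from day 1 to day 3 ran from -0.58 to 0.31, and was 0.017 with the block and 0.25 without both libraries. Pdgfc ran from -1.36 to 0.24 at day 1 and from -1.49 to 0.11 from day 1 to day 3, where Pdgfd ran from -0.0341 to 0.93 and Inhba from -0.84 to 0.11. Hbegf from day 3 to day 7 ran from -0.23 to 0.11. Inhba at day 3 ran from -0.15 to 2.07 (2.54 without both libraries), and was 0.014 from day 1 to day 3 without both libraries. The cause of these changes was not tested. Day 1 has 2 mice, and Met, Pdgfc and Inhba have few counts, which limits what these data can show for them.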

Other observations

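For the members not described by likeness above, the genes whose log2 CPM ran most like theirs over the 14 samples were as follows, given as descriptions. Pdgfa ran most like Ace, the angiotensin-converting enzyme (r = 0.922), 1700017B05Rik (r = 0.908) and Hgf (r = 0.893). Pdgfb ran most like Abcb1b, a drug efflux pump (r = 0.951), Adam8, a metalloproteinase of leukocytes (r = 0.940), and Csf2rb2, a cytokine receptor chain of myeloid cells (r = 0.928). Hbegf ran most like Pptc7, a mitochondrial phosphatase (r = 0.907), Mcts2 (r = 0.883) and Procr, the endothelial protein C receptor (r = 0.874).

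Met and Inhba ran most like each other (r = 0.967, and 0.892 without day 3 replicate 4, where both are listed at 0). Met was followed by Ptger2, a prostaglandin receptor (r = 0.960, 0.853 without that library), and Tro (r = 0.953, 0.819 without it). Inhba was followed by Pex11a, a peroxisome protein (r = 0.949, 0.936 without it), and Gm48840 (r = 0.948, 0.846 without it). For Pdgfc the values were 0.975 for Kcna2, a potassium channel, 0.965 for Asb2 and 0.953 for 9930014A18Rik, and 0.867, 0.738 and 0.573 without day 3 replicate 4.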
